A study of Mus musculus with 4 samples.

Results

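The cytosolic ribosomal protein genes encode the proteins that, with ribosomal RNA, build the small and the large subunit of the ribosome outside mitochondria. They were taken here by symbol: every gene named Rpl or Rps with a number, with an optional letter a, x, y or l, together with Rplp0, Rplp1, Rplp2 and Rpsa, pseudogene names left out, and with at least 100 unique molecular identifiers (UMIs, 1 per captured mRNA molecule) in both libraries together. The rule found 82 genes among the 32285 genes counted, 50 of the large and 32 of the small subunit. A further gene, Rpl10l, carried a matching symbol but stayed under the minimum with 1 UMI. The members nearest to the minimum from inside were Rpl39l with 178 UMIs and Rpl3l with 492 UMIs, and 80 of the 82 members had at least 10000 UMIs.

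The study compared bone marrow that lacks VISTA (VISTA KO, the checkpoint protein encoded by Vsir) with wild-type (WT) bone marrow, each used to make chimeric C57/BL6 mice. Both groups shared all other steps: after 6 weeks of reconstitution the mice received MC38 colon carcinoma cells, and tumors were taken at a diameter of 9 to 10 mm. Tumors were pooled and digested, and viable CD11b+ cells were sorted, with CD45.1 and CD45.2 staining to tell WT from KO cells, and loaded for 10x Genomics single-cell 3′ RNA sequencing. The number of mice in a pool is not stated. Each group is 1 gene expression library of pooled tumors, so a difference between the groups has no replicate check, no p-value is given, and genotype and library cannot be told apart. The intervals below cover counting error only.

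There were 15257 barcodes and 80366761 gene UMIs in the VISTA KO library, against 10241 barcodes and 61753547 gene UMIs in the WT library. After a filter of at least 200 genes, at least 500 UMIs and at most 10% mitochondrial UMIs, 15140 VISTA KO and 10193 WT cells were kept, with a median of 4213 UMIs per VISTA KO cell and 4692 per WT cell. The libraries shared 47 barcodes. Vsir stood at 46.2 UMIs per 1000000 gene UMIs (CPM) in the VISTA KO library and at 137 CPM in the WT library. The deleted stretch of Vsir is not stated, so 3′ tags that lie outside it check nothing. Clustering without ribosomal protein genes gave 20 clusters. They were named from marker lists, with "like" for names that rest on markers alone, and 50.3% of VISTA KO cells and 20.3% of WT cells lay in clusters that met no name. No cluster met the naming rule for cDC1, plasmacytoid dendritic cells, B cells, plasma cells, mast cells, eosinophils, endothelial, epithelial or erythroid cells. The labels call the sorted cells myeloid-derived suppressor cells, yet clusters with the markers of NK cells, T cells and fibroblasts were found among them. Doublets were not removed, and clusters with markers of macrophages and of another type were kept apart as mixed.

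Ribosomal protein mRNAs are among the most abundant mRNAs of growing cells and are needed in near-equal amounts. In vertebrates most of them begin with a cytosine followed by a run of pyrimidines, the TOP motif, through which mTOR signaling sets their translation as a group. In myeloid tissue their share of the transcriptome is known to be low in mature neutrophils, which make little new protein, and higher in lymphoid and progenitor cells.

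The share of all gene UMIs that came from the 82 genes ran from 4.08% to 26.1% over the named classes and libraries, while VISTA KO minus WT within a named class ran from -2.85 to 1.26 percentage points. The share was highest in fibroblast-like cells, with 23.2% in VISTA KO (72 cells) and 26.1% in WT (39 cells), and in T cell-like cells, with 21.4% in VISTA KO (16 cells) and 21.3% in WT (145 cells). NK cell-like cells followed with 18.7% in VISTA KO and 20.5% in WT, and type 2 conventional dendritic cell (cDC2)-like cells with 19.8% in VISTA KO and 19.6% in WT.

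Monocyte-like cells had 16.7% in VISTA KO and 16.5% in WT. Macrophage-like cells had 16.1% in VISTA KO and 16.4% in WT. Mature dendritic cell (mature DC)-like cells, which carry Ccr7 and Fscn1, had 15.1% in VISTA KO and 15.3% in WT. The order of the classes was the same in both libraries, except that cDC2-like cells stood above NK cell-like cells in VISTA KO and below them in WT.

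Basophil-like cells had 14.6% in VISTA KO and 13.5% in WT. The mixed neutrophil and macrophage cluster had 14.1% in VISTA KO (801 cells) and 13.6% in WT (1927 cells). Neutrophil-like cells had by far the lowest share, 5.35% in VISTA KO (76 cells, 95% exact binomial interval 5.21% to 5.48%) and 4.08% in WT (386 cells, 4.03% to 4.13%). The median neutrophil-like cell had 5.40% in VISTA KO and 2.73% in WT, and these cells were shallow, with a median of 1397 UMIs in VISTA KO and 1217 UMIs in WT.

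**Figure D1:**
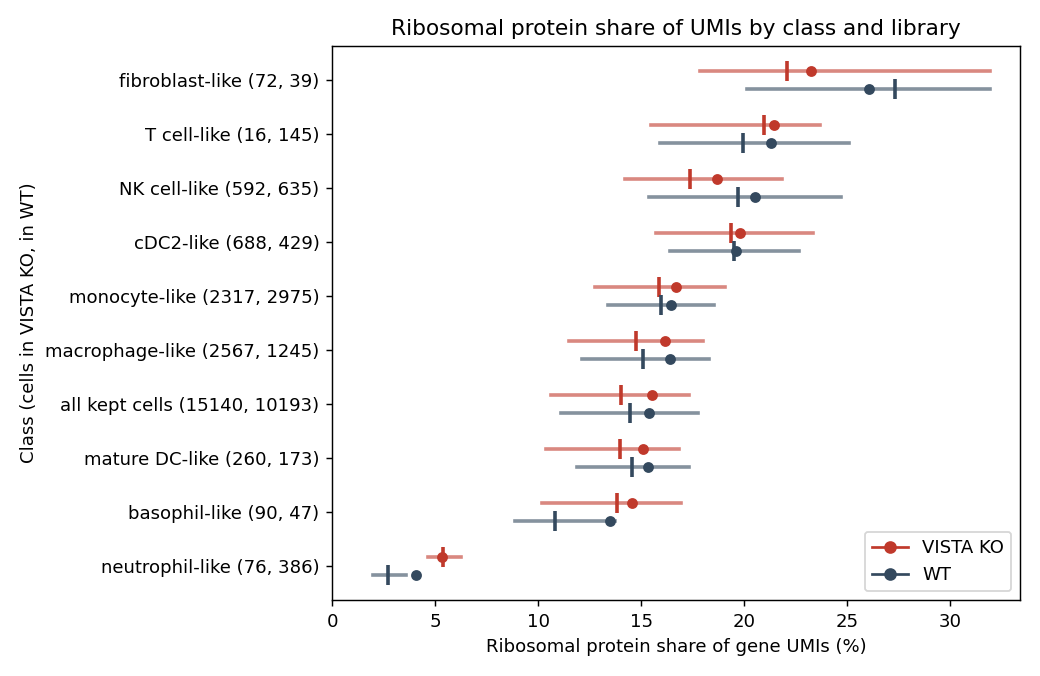
Share of gene UMIs from the 82 ribosomal protein genes (x axis, percent) in each named class and in all kept cells (y axis, with the number of cells in VISTA KO and in WT). Dots are the summed share of a library, ticks the median cell and bars the quartiles over cells, which show spread between cells and not between animals. The VISTA KO and WT dots lie farthest apart in fibroblast-like cells, at 23.2% and 26.1%, and neutrophil-like cells stand lowest at 5.35% and 4.08%.

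The share also moved with the depth of the cell, though not in the same way in every class. Over all kept cells it was 8.88% in VISTA KO and 7.12% in WT for cells of 500 to 1000 UMIs, and 15.4% in VISTA KO and 15.6% in WT for cells of 3000 to 6000 UMIs. Monocyte-like cells ran in the same way, with 8.91% in VISTA KO and 7.97% in WT in the shallowest bin and 17.0% in VISTA KO and 16.4% in WT at 3000 to 6000 UMIs. NK cell-like cells peaked in that bin, with 21.0% in VISTA KO and 24.2% in WT, and lay lower again above 12000 UMIs, at 17.9% in VISTA KO and 17.7% in WT. Fibroblast-like cells were not lower in shallow bins: at 500 to 1000 UMIs they had 24.8% in VISTA KO (7 cells) and 29.98% in WT (4 cells), and above 12000 UMIs 21.3% in VISTA KO (11 cells) and 24.4% in WT (9 cells). Neutrophil-like cells were low at the same depth too: at 1000 to 2000 UMIs they had 5.33% in VISTA KO (60 cells) and 2.77% in WT (269 cells), where monocyte-like cells had 11.6% in VISTA KO and 11.7% in WT.

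**Figure D2:**
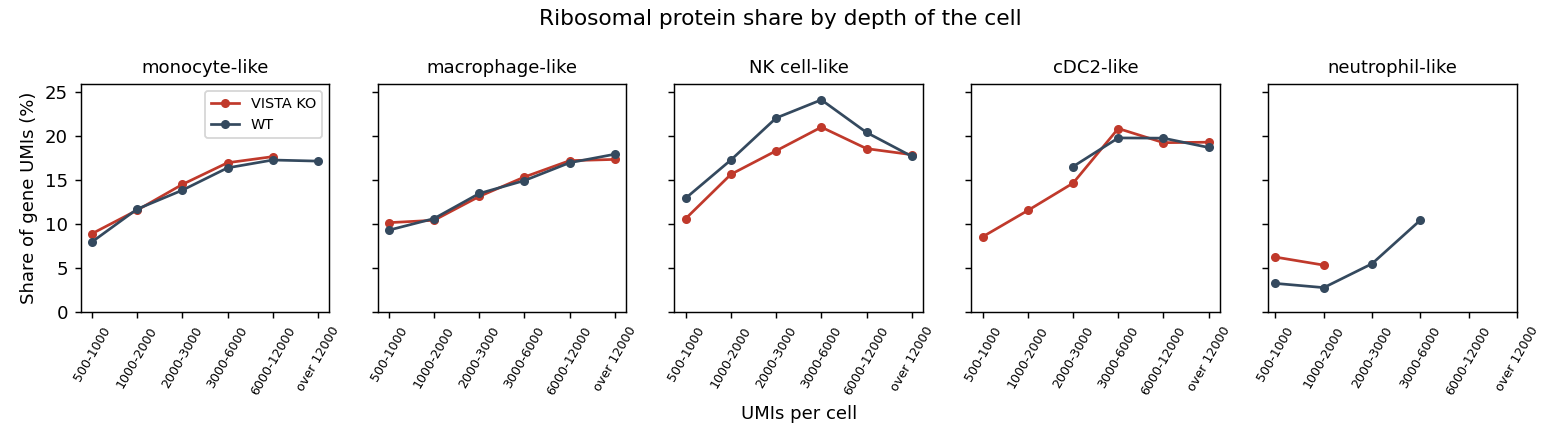
Share of gene UMIs from ribosomal protein genes (y axis, percent) against UMIs per cell in 6 bins (x axis) for 5 classes, VISTA KO and WT as separate lines, drawn for bins of at least 10 cells. The share is lower in shallow cells of the monocyte-like, macrophage-like, cDC2-like and NK cell-like classes, and the neutrophil-like lines stay below them at matched depth.

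Between the libraries the summed share was nearly equal over all kept cells and in most named classes with at least 100 cells per library. Over all kept cells it was 15.51% in VISTA KO and 15.39% in WT, a log2 ratio of VISTA KO over WT of 0.012. The log2 ratio was 0.019 in monocyte-like, -0.020 in macrophage-like, 0.012 in cDC2-like and -0.021 in mature DC-like cells. In each of these groups but mature DC-like cells, for which other settings were not run, the sign changed with the processing. Those values reached from -0.041 to 0.076, so no direction is read from them.

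NK cell-like cells had a lower share in VISTA KO in every setting tried. Their log2 ratio was -0.136 (counting interval -0.142 to -0.131), a difference of -1.85 percentage points. By depth, the share was lower in VISTA KO in each bin below 12000 UMIs. Above 12000 UMIs it was not lower, with 17.9% in VISTA KO (35 cells) and 17.7% in WT (31 cells). The median NK cell-like cell had 17.4% in VISTA KO (592 cells) and 19.7% in WT (635 cells), and the quartiles over cells overlapped, 14.2% to 21.8% in VISTA KO and 15.4% to 24.7% in WT. The ratio was -0.322 when each library was clustered alone, but that compares unlike sets of cells: the 606 VISTA KO cells stayed in 1 cluster, while in WT 122 cells with macrophage markers formed a mixed cluster apart from the 511 NK cell-like cells. The summed level of the macrophage marker genes in NK cell-like cells was 7035 CPM in VISTA KO and 4970 CPM in WT, against 24707 CPM in VISTA KO and 21563 CPM in WT in macrophage-like cells, and its part in the result was not tested. At a finer clustering, which set NK cells with macrophage markers of both libraries apart in a cluster of their own, the ratio was -0.148. Against macrophage-like cells of the same library, the NK cell-like share was higher by a log2 ratio of 0.21 in VISTA KO and 0.33 in WT. Among cells of 3000 to 6000 UMIs these ratios were 0.45 in VISTA KO and 0.69 in WT.

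Signs of RNA quality differed between the libraries. Malat1, a nuclear RNA that is enriched in droplets with little cytoplasm, stood at 13406 CPM in VISTA KO and 10148 CPM in WT, and mitochondrial genes took 1.16% of UMIs in VISTA KO and 0.929% in WT. In NK cell-like cells Malat1 stood at 16238 CPM in VISTA KO and 15024 CPM in WT. Their part in the results was not tested. Leaving mitochondrial UMIs and Malat1 out of the total gave a log2 ratio of 0.020 over all kept cells and -0.132 in NK cell-like cells. That step changes only the total, so it does not test the part of RNA quality.

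By UMIs, the most abundant members in WT were Rps24, Rpl13, Rpl19, Rpl23 and Rps27a. Rps24, a small-subunit protein, had 4404 CPM in VISTA KO and 4455 CPM in WT, and Rpl13 of the large subunit had 4165 CPM in VISTA KO and 4367 CPM in WT. These are counts of 3′ ends, 1 per molecule, and are not divided by length. At the other end stood Rpl39l and Rpl3l, which in mice are mainly known from male germ cells and from striated muscle. Rpl39l had 1.10 CPM in VISTA KO and 1.46 CPM in WT, and Rpl3l had 3.13 CPM in VISTA KO and 3.91 CPM in WT, so both were near absent. Their usual forms were abundant, with Rpl39 at 2137 CPM in VISTA KO and 2192 CPM in WT and Rpl3 at 1170 CPM in VISTA KO and 1324 CPM in WT.

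To find members that depart from the rest, each member's log2 ratio of VISTA KO over WT was set against the median of the members. A member was called apart where it differed from that median by at least 0.32 on the log2 scale and its counting interval left the median out. Over all kept cells the median was -0.016, and 78 of 82 members lay within 0.32 of it. Of the 82 members 3 were apart, which is 3.66%, against 19.6% of all 11499 genes with at least 100 UMIs measured around their own median. All 3 were higher in VISTA KO, as 9.94% of all genes were: Rpl35, Rps29 and Rpl10.

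Rpl35, a large-subunit protein at the exit of the tunnel through which new chains leave the ribosome, had 812 CPM in VISTA KO and 407 CPM in WT, a log2 ratio of 1.00 (0.98 to 1.02). Rps29, a small zinc-binding protein of the small subunit, had 3565 CPM in VISTA KO and 2342 CPM in WT, a log2 ratio of 0.61 (0.60 to 0.62). Rpl10, which joins the large subunit late in its assembly, had 1361 CPM in VISTA KO and 934 CPM in WT, a log2 ratio of 0.54 (0.53 to 0.56). Rpl35 is encoded at chr2:39001581-39005131, Rps29 at chr12:69157722-69159186 and Rpl10 at chrX:74270816-74273135 (GRCm38), so they are on different chromosomes.

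**Figure D3:**
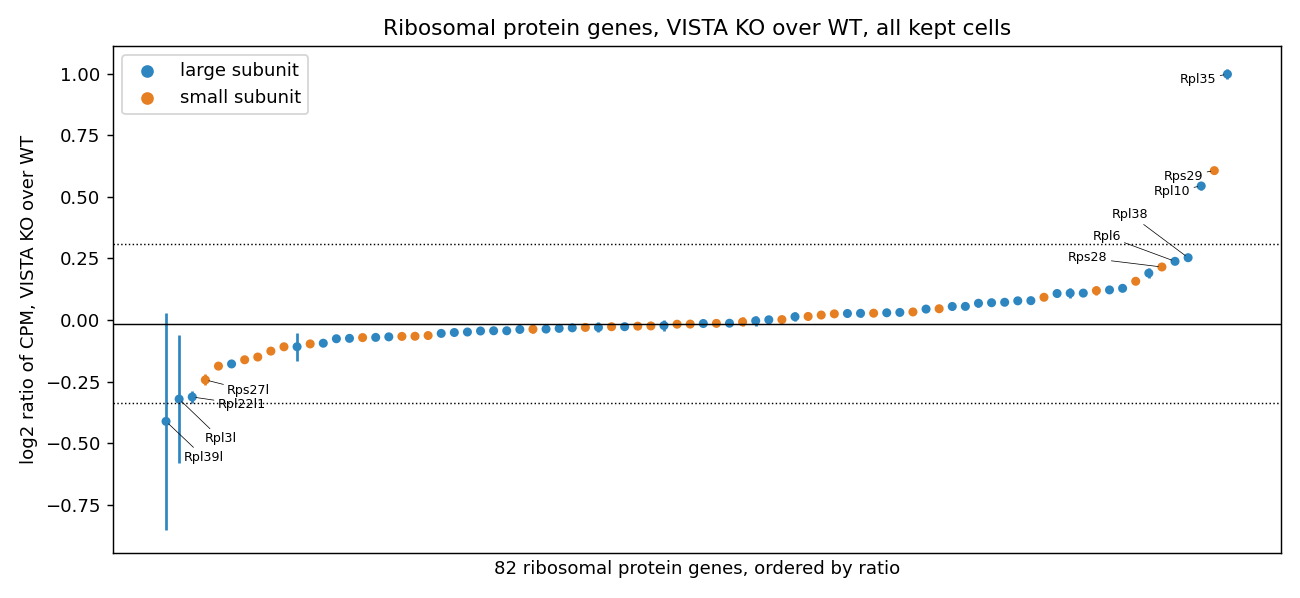
Log2 ratio of CPM, VISTA KO over WT, over all kept cells (y axis) for the 82 ribosomal protein genes in order of the ratio (x axis), colored by subunit, with 95% counting intervals. The solid line is the members' median of -0.016 and the dotted lines are 0.32 from it. Rpl35, Rps29 and Rpl10 stand above the upper dotted line, and the wide intervals on the left belong to the rare Rpl39l and Rpl3l.

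The same 3 members were apart and higher in VISTA KO in each named class with at least 100 cells per library. Rpl35 had 851 CPM in VISTA KO and 425 CPM in WT in monocyte-like cells, and 927 CPM in VISTA KO and 466 CPM in WT in macrophage-like cells. In NK cell-like cells it had 893 CPM in VISTA KO and 479 CPM in WT, and in cDC2-like cells 996 CPM in VISTA KO and 511 CPM in WT. In mature DC-like cells it had 772 CPM in VISTA KO and 363 CPM in WT. Over these 5 classes Rpl35 ran from 772 to 996 CPM in VISTA KO and from 363 to 511 CPM in WT. The share of all genes with ranges as far apart is not given. The classes come from the same libraries and are not replicates.

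Rps29 had 3898 CPM in VISTA KO and 2506 CPM in WT in monocyte-like cells, and 3727 CPM in VISTA KO and 2557 CPM in WT in macrophage-like cells. In NK cell-like cells it had 3625 CPM in VISTA KO and 2538 CPM in WT, and in cDC2-like cells 4050 CPM in VISTA KO and 2530 CPM in WT. In mature DC-like cells it had 3334 CPM in VISTA KO and 2140 CPM in WT. Rpl10 had 1661 CPM in VISTA KO and 1107 CPM in WT in monocyte-like cells, and 1404 CPM in VISTA KO and 994 CPM in WT in macrophage-like cells. In NK cell-like cells it had 1621 CPM in VISTA KO and 1216 CPM in WT, and in cDC2-like cells 1772 CPM in VISTA KO and 1214 CPM in WT. In mature DC-like cells Rpl10 had 1180 CPM in VISTA KO and 800 CPM in WT. That VISTA KO value lay below the WT value of NK cell-like cells. All 3 had a log2 ratio above 0 in 20 of 20 clusters, with a range of 0.53 to 1.21 for Rpl35, 0.31 to 0.91 for Rps29 and 0.19 to 0.86 for Rpl10. The counting interval lay above 0 in 20 clusters for Rpl35 and Rps29 and in 18 for Rpl10. The clusters share the same 2 libraries and are not replicates.

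The count of members apart was 6 of 80 in monocyte-like cells, against 20.6% of all genes tested there. Of these 3 were higher (10.3% of all genes) and 3 lower (10.2%) in VISTA KO. The count was 3 of 80 in macrophage-like cells, against 13.6%. It was 3 of 80 in NK cell-like cells (15.2% of all genes), 3 of 80 in cDC2-like cells (18.1%) and 4 of 80 in mature DC-like cells (16.2%), where Rpl6 joined the 3. Each of these shares was below the background. With a size of 1.5-fold in place of 0.32 on the log2 scale, 3 members were apart in monocyte-like cells and 1 in macrophage-like cells. The share of all genes at that size is not given, so these counts are not set against a background.

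A difference of at least 0.32 on the log2 scale in the same direction in every cluster with at least 20 UMIs per library, over 10 or more such clusters, was found in 1 of 80 members, Rpl35. The same held for 24 of 6115 genes in the higher direction, 0.392%, and for 20 in the lower direction, 0.327%. The lower genes included Rps27rt and the pseudogenes Rpl9-ps6, Rpl10-ps3 and Rpl36a-ps1, which the rule for the 82 members leaves out.

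**Figure D4:**
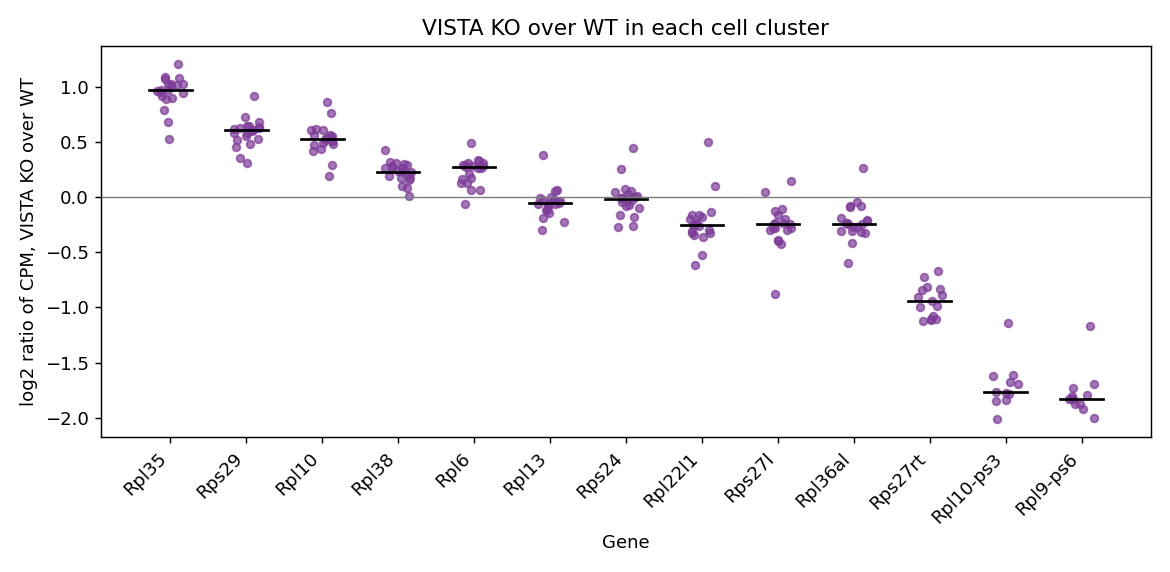
Log2 ratio of CPM, VISTA KO over WT (y axis), in each cell cluster with enough UMIs (dots) for single genes (x axis), with the median over clusters as a bar. Rpl35, Rps29 and Rpl10 lie above 0 in every cluster shown, and Rps27rt, Rpl10-ps3 and Rpl9-ps6 lie below 0 in every cluster shown.

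The copies Rpl10-ps3, Rpl9-ps6 and Rps27rt ran the other way from their parents Rpl10, Rpl9 and Rps27. Of these parents only Rpl10 was apart. Rpl36a-ps1, with a log2 ratio of -1.06, had the same sign as Rpl36a, with -0.030. Copies may share reads with their parents, so single values of these pairs are uncertain. Rpl10-ps3 had 16.7 CPM in VISTA KO and 54.1 CPM in WT, a log2 ratio of -1.69. Rpl10 and Rpl10-ps3 summed gave a log2 ratio of 0.48, against 0.54 for Rpl10 alone. Rpl9-ps6 had 30.1 CPM in VISTA KO and 105 CPM in WT, while Rpl9 with its copy gave a log2 ratio of 0.059. Rps27rt had 47.6 CPM in VISTA KO and 94.7 CPM in WT, and Rps27 with it gave 0.11.

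Some ribosomal proteins with other names were set beside the members. Rps27a, made as a fusion with ubiquitin and itself a member by name, had 3444 CPM in VISTA KO and 3440 CPM in WT. Fau, whose protein carries a ubiquitin-like part and a small-subunit part, had 6714 CPM in VISTA KO and 6769 CPM in WT. Rack1, a scaffold on the small subunit, had 964 CPM in VISTA KO and 913 CPM in WT. Rpl36al, a near copy of Rpl36a, had 1014 CPM in VISTA KO and 1218 CPM in WT, a log2 ratio of -0.26, while Rpl36a had 549 CPM in VISTA KO and 561 CPM in WT.

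Some smaller shifts, under 0.32 on the log2 scale, kept their sign in most clusters. The share of all genes that keep a sign in as many clusters is not given. Rpl38 had 1684 CPM in VISTA KO and 1414 CPM in WT, a log2 ratio of 0.25 that was above 0 in 20 of 20 clusters. Rps28 had a log2 ratio of 0.22 and was above 0 in 20 of 20 clusters, and Rpl6 had 0.24 and was above 0 in 19 of 20. For Rpl38, Rps28 and Rpl6 the counting interval lay above 0 in 16 clusters each. In the lower direction Rps26 had 1506 CPM in VISTA KO and 1714 CPM in WT, a log2 ratio of -0.19, and Rpl3 had -0.18. Rps26 and Rpl3 were each above 0 in 2 of 20 clusters, and their intervals lay below 0 in 17 clusters for Rps26 and 14 for Rpl3.

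Paralogues of usual ribosomal proteins had log2 ratios below 0. Rpl22l1, the paralogue of the RNA-binding Rpl22, had 308 CPM in VISTA KO and 383 CPM in WT, a log2 ratio of -0.31, and Rpl22 had 1283 CPM in VISTA KO and 1322 CPM in WT. Rps27l, a target of p53 and paralogue of Rps27, had 425 CPM in VISTA KO and 503 CPM in WT, a log2 ratio of -0.24, and Rps27 had 1583 CPM in VISTA KO and 1420 CPM in WT. Rpl7l1, the paralogue of Rpl7, had 69.0 CPM in VISTA KO and 74.4 CPM in WT, and Rpl7 had 1316 CPM in VISTA KO and 1291 CPM in WT. None of the 3 was apart over all kept cells.

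In monocyte-like cells these 3 paralogues were the members apart and lower in VISTA KO. Rpl22l1 had 378 CPM in VISTA KO and 491 CPM in WT there, a log2 ratio of -0.38 (-0.44 to -0.32). Rps27l had 348 CPM in VISTA KO and 445 CPM in WT, a log2 ratio of -0.36 (-0.42 to -0.30). Rpl7l1 had 54.0 CPM in VISTA KO and 70.8 CPM in WT, a log2 ratio of -0.39 (-0.55 to -0.23). In macrophage-like cells none of them was apart, and whether the ratios differ between the 2 classes was not tested. Lower values were not limited to monocyte-like cells. In NK cell-like cells Rpl22l1 had a log2 ratio of -0.36 (-0.46 to -0.26), though it was not apart from the members' median of -0.15 there. Rps27l was also apart and lower in the mixed neutrophil and macrophage cluster, and its interval lay below 0 in 15 of 19 clusters.

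Classes also differed in the make-up of their ribosomal protein mRNAs. Here each class was set against all other named cells of its own library, and a member counted only where it was apart in both libraries. Mature DC-like cells held the one large departure: Rps27l had 1759 CPM in VISTA KO and 1895 CPM in WT, against 418 CPM in VISTA KO and 477 CPM in WT in other named cells. No other class reached these levels. Rps27l thus lay above the members' median for this class by 2.28 on the log2 scale in VISTA KO and 2.19 in WT. Rps19, a small-subunit protein mutated in Diamond-Blackfan anemia in people, and Rpsa, which also serves as a laminin receptor, were apart and higher as well, and Rpl3 was apart and lower. Rps19 had 3231 CPM in VISTA KO and 3809 CPM in WT in mature DC-like cells, against 2476 CPM in VISTA KO and 2680 CPM in WT in other named cells. Rpl3 had 906 CPM in VISTA KO and 1036 CPM in WT there, against 1346 CPM in VISTA KO and 1566 CPM in WT in other named cells. That made 4 of 80 members, against 26.2% of all 9012 genes tested.

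In NK cell-like cells Rpl22l1 was apart and higher, with 548 CPM in VISTA KO and 705 CPM in WT, against 334 CPM in VISTA KO and 442 CPM in WT in other named cells. Rps27l and Rpl7l1 were apart and lower. Rps27l had 303 CPM in VISTA KO and 359 CPM in WT in NK cell-like cells, against 501 CPM in VISTA KO and 544 CPM in WT in other named cells. That made 3 of 80 members, against 35.3% of all genes. In macrophage-like cells Rpl22l1 was apart and lower, with 281 CPM in VISTA KO and 336 CPM in WT, against 405 CPM in VISTA KO and 509 CPM in WT in other named cells. Rpl7l1 was apart and higher there, with 82.8 CPM in VISTA KO and 87.6 CPM in WT, against 61.6 CPM in VISTA KO and 70.7 CPM in WT. These were 2 of 80 members, against 36.9% of all genes.

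In monocyte-like cells Rps9 was apart and higher, and Rpl12 and Rps27l were apart and lower, 3 of 80 members against 36.6%. Rpl12 had 743 CPM in VISTA KO and 728 CPM in WT in monocyte-like cells, against 1040 CPM in VISTA KO and 1022 CPM in WT in other named cells.

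**Figure D5:**
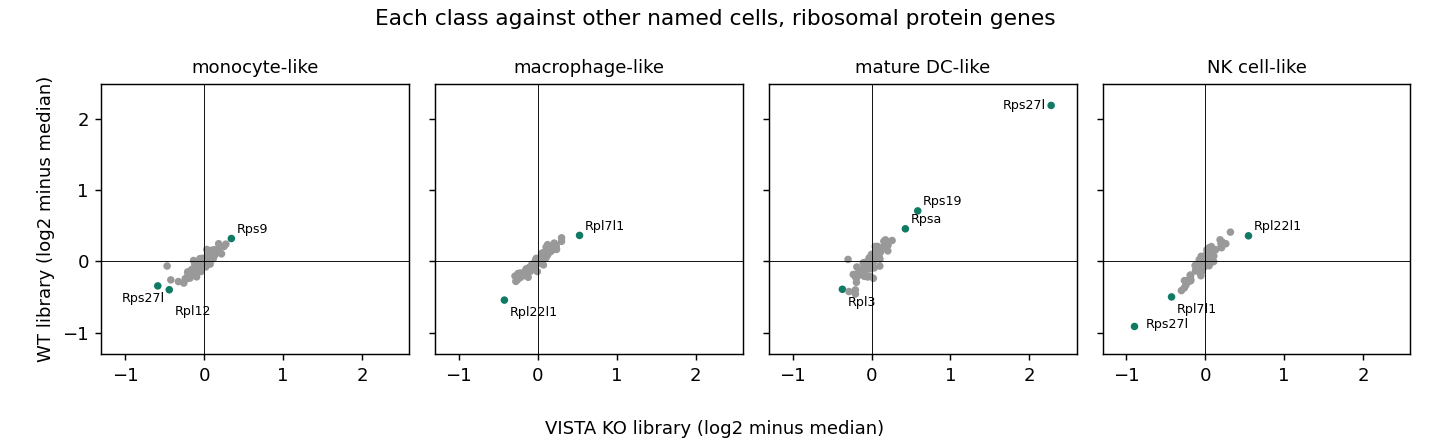
Each dot is a ribosomal protein gene, placed by its log2 ratio of a class over all other named cells minus the members' median for that class, in the VISTA KO library (x axis) and in the WT library (y axis), for 4 classes. Named green dots are apart in both libraries, and Rps27l in mature DC-like cells lies farthest out, at 2.28 in VISTA KO and 2.19 in WT.

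The promoter windows below show the start of the mRNA of the members named above as apart or shifted between the libraries, since the TOP motif is known from this family. RefSeq promoters (GRCm38.p6) matched 62 of the 82 members, and Rps29 and Rpl3 were not among the matches. Each line gives 15 bases before and 15 from the annotated start, on the gene's strand, with the run of pyrimidines that begins at the start in capitals. They lie at chr2:39005117-39005146 (-) for Rpl35, chr11:114668565-114668594 (+) for Rpl38, chrX:74270801-74270830 (+) for Rpl10, chr5:121204486-121204515 (+) for Rpl6, chr17:33824548-33824577 (-) for Rps28, chr10:128626492-128626521 (-) for Rps26, chr3:28805493-28805522 (+) for Rpl22l1, chr17:46782642-46782671 (-) for Rpl7l1, and chr9:66946071-66946100 (+) and chr9:66946398-66946427 (+) for the 2 annotated starts of Rps27l.
Rpl35: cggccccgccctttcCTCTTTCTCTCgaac
Rpl38: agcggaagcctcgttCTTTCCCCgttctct
Rpl10: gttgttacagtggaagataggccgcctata
Rpl6: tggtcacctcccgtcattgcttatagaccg
Rps28: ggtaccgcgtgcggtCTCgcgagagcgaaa
Rps26: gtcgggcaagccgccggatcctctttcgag
Rpl22l1: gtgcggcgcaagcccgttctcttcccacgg
Rpl7l1: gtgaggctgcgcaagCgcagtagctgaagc
Rps27l, upstream start: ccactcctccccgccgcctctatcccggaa
Rps27l, downstream start: accatgggcttcagggtcactaacgggcct

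The motif searched was a C at the annotated start followed by 4 bases that are each C or T, on the gene's strand only. It was found in 13 of the 62 members, 21.0%, against 3.01% of all 27025 genes with a promoter entry and 0 of 69 mitochondrial ribosomal protein genes. Among other genes listed as TOP mRNAs it was found in 6 of 17, 35.3%. Within 5 bases on either side of the start it was found in 46.8% of members and 19.7% of all genes. Of the 9 members whose windows are printed, Rpl35 and Rpl38 held it at the start, and the other 7 did not. Of those 7, Rps26, Rpl22l1 and the upstream start of Rps27l held it within 5 bases of the start.

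The rest of the translation machinery was described with lists chosen by function. Here a gene counts as higher or lower where its CPM differed by at least 0.32 on the log2 scale between the libraries and the interval left out no difference, which held for 15.3% of all genes in the higher and 7.24% in the lower direction over all kept cells. In monocyte-like cells it held for 15.4% in the higher and 6.34% in the lower direction, and in macrophage-like cells for 9.98% and 4.31%. The mitochondrial ribosomal proteins, which build a separate ribosome inside mitochondria, were counted next. In monocyte-like cells 0 of 78 were higher and 23 were lower in VISTA KO, with a median log2 ratio of -0.24, where the median of all genes was 0.069. Mrpl55 was lowest there, with 20.7 CPM in VISTA KO and 36.9 CPM in WT. Over all kept cells 0 were higher and 3 lower of 78, and in macrophage-like cells 1 was higher and 3 were lower.

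Ribosome biogenesis factors had 1 higher and 7 lower of 41 in monocyte-like cells, 0 higher and 1 lower of 44 over all kept cells, and 2 higher and 1 lower of 42 in macrophage-like cells. Gar1, part of the complex that modifies uridines in ribosomal RNA, had 9.57 CPM in VISTA KO and 16.4 CPM in WT in monocyte-like cells. Initiation factors had 1 higher and 0 lower of 36 over all kept cells, 4 higher and 2 lower in monocyte-like cells, and 2 higher and 0 lower in macrophage-like cells. Eif3j1, a loosely bound subunit of the initiation factor that joins the small subunit, was that one gene, with 62.0 CPM in VISTA KO and 40.1 CPM in WT.

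Elongation and termination factors had 0 higher and 0 lower of 11 over all kept cells, and none in monocyte-like or macrophage-like cells. Eef2, which moves the ribosome along the mRNA, had 358 CPM in VISTA KO and 312 CPM in WT. Regulators of ribosomal protein synthesis had 3 higher and 1 lower of 24 over all kept cells, 3 higher and 1 lower of 21 in monocyte-like cells, and 1 higher and 0 lower of 23 in macrophage-like cells. Eif4ebp1, a repressor of translation that mTOR switches off, had 216 CPM in VISTA KO and 276 CPM in WT in monocyte-like cells.

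The genes listed for RNA quality and stress had 4 higher and 2 lower of 14 over all kept cells, 5 higher and 1 lower in monocyte-like cells, and 1 higher and 2 lower in macrophage-like cells. Hspa1b, a heat-shock chaperone, had 92.8 CPM in VISTA KO and 38.3 CPM in WT in monocyte-like cells. The list of paralogues of ribosomal proteins also held the abundant members Rps3a1 and Rpl26. It had 0 higher and 0 lower of 7 over all kept cells. In monocyte-like cells it had 0 higher and 3 lower of 5. The 3 lower genes were the paralogues named above, and the others measured there were Rps3a1 and Rpl26.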

How the data were processed

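Deposited counts are UMI counts per gene and barcode of 1 VISTA KO and 1 WT gene expression library. The authors' matrices were made with Cell Ranger (5.0.0 in the matrix header) on mm10, and Seurat 4.0 is named, per the submitters' processing notes and the file headers; how reads were counted over gene copies is not stated. The antibody tags were not used. Cells with at least 200 genes, at least 500 UMIs and at most 10% mitochondrial UMIs were clustered with scanpy 1.11.5: counts set to a sum of 10000 in each cell and put on a log scale, 2000 variable genes chosen within each library without ribosomal, cell cycle, mitochondrial, sex-linked or Vsir genes, 30 principal components, 15 neighbours and Leiden resolution 1. A marker supported a name at 1.5-fold over other cells and in 20% of cells, at least 3 of one of 18 lists were needed, and a cluster with at least 3 macrophage markers in 60% of its cells beside another type's was called mixed. Clusters were rebuilt here, and their names may differ from the study's. UMIs were summed per class and library. Shares carry exact binomial and ratios exact conditional binomial 95% intervals, with 1 UMI added to each sum of a single gene's ratio. A class was compared between libraries with at least 100 cells in each, and a gene with at least 100 UMIs. No test across samples was possible with 1 library per group. PCR duplicates are collapsed by UMI, and the intervals cover counting error only. The steps were tested on simulated data. Named members are the 5 highest and 5 lowest against the members' median over all kept, monocyte-like and macrophage-like cells, the 3 highest and 3 lowest per class profile, the 5 most and 5 least abundant, paralogues with their parents, and up to 4 genes per companion list; the text gives those that matter and the counts of the rest. Values of some genes are not reported here. The members and lists were chosen with earlier results of these data known.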

Additional observations from a re-analysis of the deposited data

Results flagged for a closer look

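The log2 ratio of the ribosomal protein share, VISTA KO over WT, had opposite signs in classes compared in the same way. As computed it was above 0 in cDC2-like cells (0.012) and monocyte-like cells (0.019), and below 0 in NK cell-like cells (-0.136), macrophage-like cells (-0.020) and mature DC-like cells (-0.021). In monocyte-like, macrophage-like and cDC2-like cells the sign changed with the processing, and in mature DC-like cells no other setting was run, so no direction is read from these 4 values; the NK cell-like value stayed below 0 in every setting tried. The difference between the classes was not tested, since each group is 1 library.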

How the results depend on the processing

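The NK cell-like share was lower in VISTA KO in every other setting, from -0.322 to -0.132, and the NK cell-like share was above the macrophage-like share in both libraries in each of them. The ratios near 0 changed sign, and the cause was not tested. Values below are log2 ratios of VISTA KO over WT for all kept, monocyte-like, macrophage-like, cDC2-like and NK cell-like cells, then of NK cell-like over macrophage-like cells in VISTA KO and in WT, with settings that moved a value by less than the counting interval left out. Without mitochondrial UMIs and Malat1 in the total they were 0.020, 0.026, -0.012 and 0.019 for the first 4 groups, then 0.216 in VISTA KO and 0.336 in WT. With each cell weighted equally they were -0.033, -0.010, -0.041, -0.013 and -0.149, then 0.296 in VISTA KO and 0.404 in WT. In cells of 3000 to 6000 UMIs they were -0.014, 0.051, 0.039, 0.076 and -0.199, then 0.453 in VISTA KO and 0.691 in WT. Without the 10 most abundant members they were 0.0046, 0.0077, -0.025, 0.0068 and -0.146, then 0.222 in VISTA KO and 0.344 in WT. Without Rpl35, Rps29 and Rpl10 they were -0.0076, -0.0014, -0.039, -0.0066 and -0.154, then 0.217 in VISTA KO and 0.332 in WT; this setting was chosen after seeing the data. With the median of the members in place of the sum they were -0.016, -0.013, -0.040, -0.0040 and -0.147, then 0.220 in VISTA KO and 0.334 in WT. With the stricter filter (500 genes, 1000 UMIs, 5% mitochondrial) they were 0.016, -0.010, -0.015, -0.022 and -0.148, then 0.445 in VISTA KO and 0.578 in WT. In cells thinned to 1000 UMIs, which left out 1561 VISTA KO and 561 WT cells, all kept cells gave -0.014, macrophage-like -0.037 and NK cell-like -0.145, then 0.290 in VISTA KO and 0.399 in WT. Without lower limits on genes and UMIs, monocyte-like gave -0.036, macrophage-like -0.025 and cDC2-like -0.0015, then 0.231 in VISTA KO and 0.341 in WT. With clusters weighted equally, monocyte-like gave 0.0012 and macrophage-like -0.027, then 0.192 in VISTA KO and 0.301 in WT. At Leiden resolution 2, monocyte-like gave -0.028, macrophage-like -0.027, cDC2-like 0.0026 and NK cell-like -0.148, then 0.460 in VISTA KO and 0.581 in WT. With each library clustered alone, monocyte-like gave 0.026, macrophage-like 0.040, cDC2-like -0.0029 and NK cell-like -0.322, then 0.228 in VISTA KO and 0.590 in WT; here a mixed NK cell and macrophage cluster was set apart in WT and not in VISTA KO. Without mixed and unnamed clusters, all kept cells gave -0.0049. At 1.5-fold the members apart were 3 in monocyte-like and 1 in macrophage-like cells, and other settings gave 2 to 4 over all kept cells. Matching shares of all genes are not given, so these counts are not set against a background. Rpl35 stayed between 0.92 and 1.10, Rps29 between 0.47 and 0.66 and Rpl10 between 0.37 and 0.61 over the groups and settings tried for them, which were chosen after seeing the data. No paired analysis was possible because there is 1 library in each group. Depth limits the neutrophil-like values, which rest on 76 VISTA KO and 386 WT cells.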
